A study of Mus musculus with 4 samples.

Results

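The Eph, ephrin, Slit, Robo and netrin families carry much of the contact and short-range guidance that steers migrating cells and axons. They were taken here from the table of all genes by symbol: every numbered Eph receptor and ephrin, the Slits and Robos, netrins 1, 3 and 4, and the netrin receptors Dcc, Neo1 and Unc5a to Unc5d, at 1 row per gene identifier. The rule found 38 of the 27178 genes, 14 ligands and 24 receptors, and it used no measured value. The wavefront group is 2 libraries of neural crest-derived cells from the leading edge of gut colonisation, in mouse embryos carrying Wnt1-tdT and collected 11.5 days post coitum. The trailing group is 2 libraries of such cells taken 1 to 1.5 mm behind that edge, at the same stage and with the same reporter. Flow cytometry collected the reporter-positive cells of both groups, and a Wnt1-driven reporter marks neural crest derivatives of several types. The labels do not say whether embryos were pooled or whether replicates came from separate litters. A p-value here is therefore set against the spread of single libraries, and that spread may be technical. In sorted bulk RNA, fewer cells that express a gene and less of its RNA per cell cannot be told apart.

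Eph receptors are receptor tyrosine kinases that read ephrins anchored on the surface of a neighbouring cell. Ephrin-As are held by a lipid anchor and ephrin-Bs span the membrane, and contact often makes cells repel each other or sort apart. Slits are secreted proteins that repel cells through Robo receptors. Netrins are secreted, laminin-related proteins that attract through Dcc or repel through Unc5 receptors, and Neo1, neogenin, binds netrins and repulsive guidance molecules. In mouse gut, netrins and Dcc are known to draw crest cells inwards from the outer gut wall, and in chick, Slit2 repels trunk neural crest cells while vagal crest cells enter the gut.

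Depth limits every value here. Wavefront replicates 1 and 2 held 452144 and 114972 reads outside ribosomal RNA, against 386540 and 330644 in trailing replicates 1 and 2. Wavefront replicate 2 stood apart, with 55.5% of its reads in ribosomal RNA, against 15.6 to 26.1% in the other 3 libraries. It also held 111 reads of red blood cell markers, 67 of them Hbb-y and 33 Hba-x, which summed to 965 CPM outside ribosomal RNA, against 2.21 CPM in wavefront replicate 1 and 5.17 and 0 CPM in trailing replicates 1 and 2. Of the markers of enteric crest cells, the receptor gene Ret had 1413 and 155 reads at the wavefront and 864 and 545 in trailing cells, and Sox10 had 14 and 4 reads at the wavefront and 22 and 26 in trailing cells, so both were present in every library. Sums of other marker lists are given in CPM (read counts scaled to a common library size, here that of the reads outside ribosomal RNA). The sum of 15 neuron markers was 1505 to 1645 CPM at the wavefront and 5482 to 6173 CPM in trailing cells, and all 15 had reads in both groups. The sum of 16 gut mesenchyme markers was 533 to 1557 CPM at the wavefront, where Twist1 and Myh11 were at 0, and 251 to 281 CPM in trailing cells, where Lum, Foxf1, Foxf2 and Hand1 were at 0 as well. The part of these cell mixtures in the results on guidance genes was not tested.

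Of the 38 genes, 29 had a read in at least 1 library (76.3%, against 53.7% of all genes), and all 38 together gave 265 and 86 reads in wavefront replicates 1 and 2 and 217 and 273 reads in trailing replicates 1 and 2. The 9 with no read were the Eph receptors Epha2, Epha6, Epha8 and Epha10, the ligands Slit1 and Ntn4, and the receptors Robo3, Robo4 and Unc5d. A count of 0 over all 4 libraries allows up to 2.34 CPM outside ribosomal RNA for each, in counting error only. Robo4 is the endothelial Robo and Robo3 that of commissural axons, and neither was detectable at this depth. Another 12 genes had fewer than 10 reads in all, and 5 genes, Efna5, Slit3, Robo1, Unc5c and Ephb4, had 50 or more. Levels of single genes are given below in reads and in scaled CPM, which are CPM of a library size adjusted by trimmed means (TMM).

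**Figure D1:**
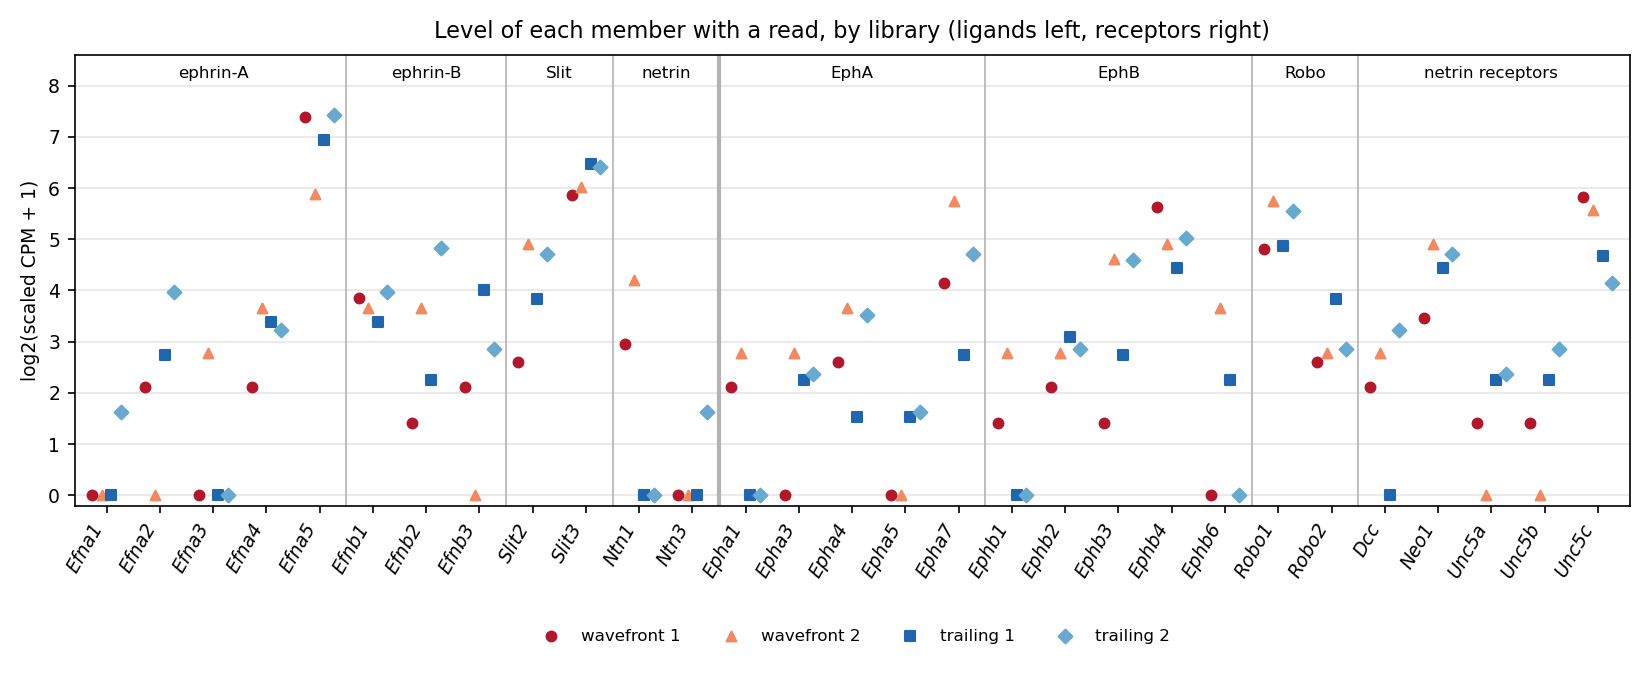
Level of the 29 guidance genes with a read in each of the 4 libraries, as log2(scaled CPM + 1) on the vertical axis, with ligands left of the thick line and receptors right of it. Each point is 1 library (red circle and orange triangle, wavefront replicates 1 and 2; dark blue square and light blue diamond, trailing replicates 1 and 2); the Unc5c and Ntn1 points of the wavefront lie above both trailing points, and those of Slit3 lie below them.

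The reads of several families came largely from a single gene. Efna5, ephrin-A5, gave 255 of the 335 ephrin reads over all libraries (76.1%, 95% exact binomial interval 71.2 to 80.6%), and its share was 86.8 and 58.8% in wavefront replicates 1 and 2 and 73.6 and 70.1% in trailing replicates 1 and 2. Slit3 gave 131 of the 158 Slit reads (82.9%, 76.1 to 88.4%) and Robo1 gave 62 of 76 Robo reads (81.6%, 71.0 to 89.5%), each at 68.2% or more in every library. These 3 genes thus led their families in all 4 libraries. The leading receptors of the other families varied more. Unc5c gave 62 of 114 netrin receptor reads (54.4%, 44.8 to 63.7%), with 76.7 and 57.1% at the wavefront and 46.4 and 27.6% in trailing cells. In trailing replicate 2, Neo1 had 12 reads and Unc5c 8. Ephb4 gave 60 of 150 Eph receptor reads (a share of 32.1 to 48.3%), with 60.4 and 19.2% at the wavefront and 40.7 and 30.6% in trailing cells. In wavefront replicate 2, Epha7 had 9 reads and Ephb4 5. The intervals pool the libraries and cover counting error only, since the labels name no molecular identifiers.

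Between genes, levels were compared per kilobase of merged exons, in scaled CPM. Efna5 stood highest, at 27.9 scaled CPM per kilobase at the wavefront and 36.3 in trailing cells, the mean of 2 libraries each. Over both groups that placed it at the 92.7 percentile of the 13902 genes with a read and an annotated length. Slit3 came next, at 9.41 and 10.6 scaled CPM per kilobase at the wavefront and 14.4 and 13.8 in trailing cells, and its highest library, at 14.4, lay just under the lowest of Efna5, at 14.5. Ephb4 followed, at 8.40 at the wavefront and 5.63 in trailing cells, and its range over libraries overlapped that of Slit3. Below Ephb4 the ranges of neighbouring genes overlapped at every step, so the order of neighbours is not resolved there. Robo1, the main Robo, had 2.41 scaled CPM per kilobase at the wavefront and 2.26 in trailing cells, and Slit2, the other Slit detected, had 0.67 and 0.76. Taking the longest transcript as the length kept Efna5, Slit3, Ephb4 and Efna4 in the first 4 places and moved Robo1 to rank 5 from rank 9, and Unc5c to rank 7 from rank 12.

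**Figure D2:**
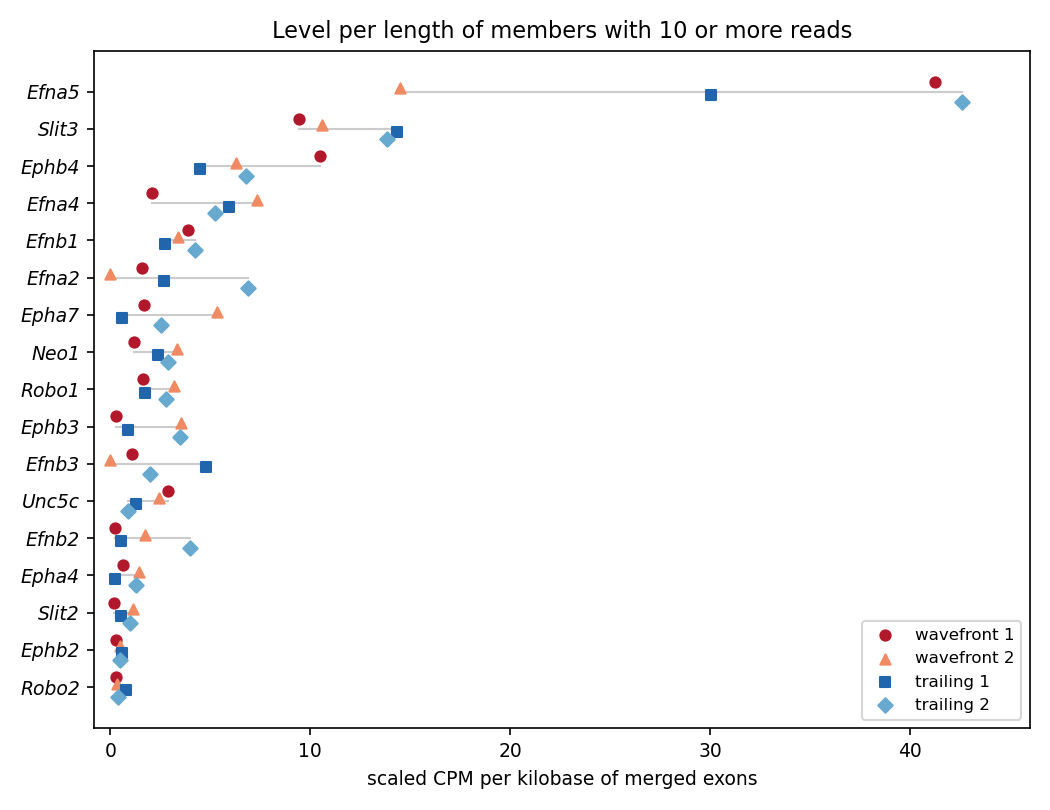
Level per length of the 17 guidance genes with 10 or more reads in all, in scaled CPM per kilobase of merged exons on the horizontal axis, in order of their mean. Each point is 1 library and grey lines span the 4 libraries; Efna5 spans 14.5 to 42.6 and does not overlap Slit3, which spans 9.41 to 14.4.

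No guidance gene passed the threshold between the wavefront and the trailing position with all 4 libraries. On log2(CPM + 1), limma tested 26 of the 38 genes and called 0, with 0.0% of all 12519 genes called as well, at Benjamini-Hochberg adjusted p under 0.05. On whole reads recovered from the CPM, edgeR's quasi-likelihood test covered the 7 genes past its read filter, 2 ligands and 5 receptors, and called 0, against 1.74% of the 5759 genes tested (0.399% higher and 1.34% lower at the wavefront). DESeq2, which gave an adjusted p to 5 of the 38, called 0 of them, with 0 at an unadjusted p under 0.05, against 0.277% of its genes called. At an unadjusted p under 0.05, limma had 2 of 26, Ntn1 and Epha1, both higher at the wavefront, against 6.85% of all genes, of which 1.07% were higher and 5.78% lower. EdgeR had 1 of 7, Unc5c, higher at the wavefront, against 9.9% of all genes, of which 3.98% were higher and 5.92% lower. The median log2 fold change of the 7 was -0.12, where that of all genes tested was 0.01. In limma it was -0.73 over the 26, and the median of all genes was itself shifted, to -0.35. In the edgeR test the 95% intervals of the 7 reached between 0.67 and 1.27 log2 units to either side, before adjustment over all genes. Differences under about that size were not detectable, and passing the adjusted threshold takes larger ones. Unc5c did not pass at a log2 fold change of 1.33.

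**Figure D3:**
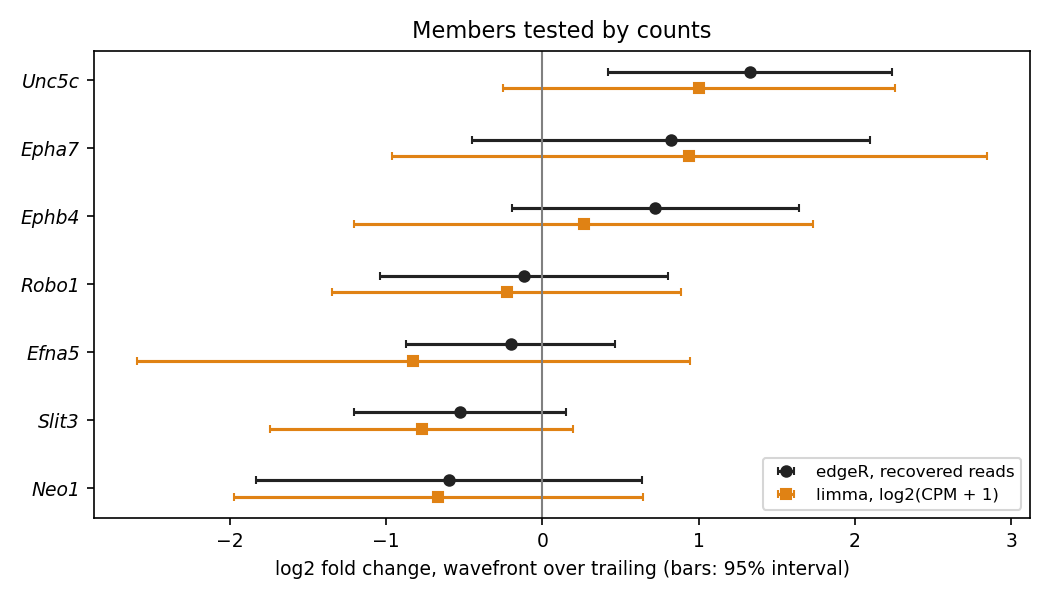
Log2 fold change, wavefront over trailing, of the 7 guidance genes tested by counts, on the horizontal axis, with 95% intervals as bars. Black circles are edgeR on recovered reads and orange squares limma on log2(CPM + 1); the edgeR interval of Unc5c spans 0.42 to 2.24, and the 6 other edgeR intervals cross 0.

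Among the ligands, Efna5 (chromosome 17, 62604184 to 62881317, GRCm38) is an ephrin-A that binds most EphA receptors and also EphB2. It had 99 and 10 reads in wavefront replicates 1 and 2, against 64 and 82 reads in trailing replicates 1 and 2. In scaled CPM this was 166 and 58.4 at the wavefront, against 121 and 172 in trailing cells. Wavefront replicate 2 was the low library, and the groups overlapped. The log2 fold change was -0.20 ± 0.33 SE (95% interval -0.87 to 0.46; edgeR adjusted p = 0.908), and without wavefront replicate 2 it was 0.24 (edgeR adjusted p = 0.865).

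The other ephrins were sparse. Efnb1, the X-linked ephrin-B, had 8 and 2 reads at the wavefront and 5 and 7 in trailing cells, a scaled ratio of 1.09 of wavefront over trailing reads (95% exact binomial counting interval 0.42 to 2.76). Efnb2, the ephrin-B of arterial endothelium, had 1 and 2 reads at the wavefront and 2 and 13 in trailing cells (ratio 0.26, 0.05 to 0.93). Most Efnb2 reads thus came from trailing replicate 2. Efnb3, which is prominent in neural tissue, had 2 and 0 reads at the wavefront and 8 and 3 in trailing cells (0.24, 0.03 to 1.09). Efna2 had 2 and 0 reads at the wavefront and 3 and 7 in trailing cells (0.26, 0.03 to 1.23). Both wavefront libraries lay below both trailing libraries for Efnb3 and Efna2, and the neuron markers were lower at the wavefront too, the part of which was not tested. Efna4 had 2 and 2 reads at the wavefront and 5 and 4 in trailing cells. Efna1 and Efna3 had 1 read each, in trailing replicate 2 and wavefront replicate 2.

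Slit3 (chromosome 11, 35121224 to 35708507) had 34 and 11 reads at the wavefront, against 46 and 40 reads in trailing cells. Scaled, these were 57.1 and 64.3 CPM at the wavefront and 87.1 and 83.8 CPM in trailing cells, so the groups did not overlap and the wavefront was the lower. The log2 fold change was -0.53 ± 0.34 SE (95% interval -1.20 to 0.15), and it did not pass (edgeR adjusted p = 0.673; limma -0.77, adjusted p = 0.707). Slit2, the Slit most studied in crest repulsion, had 3 and 5 reads at the wavefront and 7 and 12 in trailing cells, a scaled ratio of 0.55 (0.21 to 1.32), with overlapping groups.

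Ntn1, netrin-1 (chromosome 11, 68209364 to 68400823), was the only netrin with more than 1 read, and Ntn3 had 1 read, in trailing replicate 2. It had 4 and 3 reads at the wavefront and 0 and 0 in trailing cells. Against a floor of 3 reads over the 2 trailing libraries together, the observed wavefront level was 3.06-fold higher. That value leaves out the counting error of the wavefront reads themselves, so it is not a lower bound. In limma the log2(CPM + 1) fold change was 3.36 ± 0.80 SE and did not pass (unadjusted p = 0.00499, adjusted p = 0.68), and edgeR without its read filter gave an adjusted p of 0.315. In the authors' deposited table Ntn1 had the smallest unadjusted p of the 38, at 0.0933. Gut epithelium and mesenchyme are known sources of netrin-1 in the embryo, and the sums of both marker lists were higher at the wavefront too. The 10 epithelial markers summed to 33.2 and 87.0 CPM outside ribosomal RNA at the wavefront, with Sox17 at 0, and to 10.3 and 9.07 CPM in trailing cells, with Cdh1, Shh, Foxa2, Cldn6, Cldn7 and Sox17 at 0. Their part in the Ntn1 reads was not tested.

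Among the 5 receptors that edgeR tested, Unc5c (chromosome 3, 141465216 to 141834924), a repulsive netrin receptor, came closest to the threshold. Limma tested 17 receptors, and there Epha1, Ephb1, Unc5b and Epha5 had lower unadjusted p (0.0285 to 0.0882) than Unc5c (0.0993). Unc5c had 33 and 8 reads in wavefront replicates 1 and 2, against 13 and 8 reads in trailing replicates 1 and 2. Scaled for depth these were 55.4 and 46.7 CPM at the wavefront and 24.6 and 16.8 CPM in trailing cells, so both wavefront libraries lay above both trailing ones. The means were 51.1 ± 6.13 and 20.7 ± 5.55 scaled CPM at the wavefront and in trailing cells (SD, n = 2 each). The log2 fold change was 1.33 ± 0.45 SE (95% interval 0.42 to 2.24), with an unadjusted p of 0.00497 and an adjusted p of 0.15 in edgeR. Limma gave 1.00 ± 0.52 SE (adjusted p = 0.707). Without wavefront replicate 2 the edgeR log2 fold change was 1.45. That fit keeps 1 wavefront library, so no spread within the wavefront group enters it. With all 4 libraries the edgeR and DESeq2 alternatives gave adjusted p from 0.139 to 0.9998. An annotated gene on the other strand, Gm15688, shares 118 exon bases with Unc5c and was not analysed here.

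The other Unc5 receptors and Dcc were near the floor. Unc5a had 1 and 0 reads at the wavefront and 2 and 2 in trailing cells, and Unc5b, known from endothelium, had 1 and 0 reads at the wavefront and 2 and 3 in trailing cells. By scaled level both wavefront libraries lay below both trailing ones for each of them, at counts under the filter of the count test. Dcc, the attractive netrin receptor, had 2 and 1 reads at the wavefront and 0 and 4 in trailing cells (scaled ratio 0.98, 0.14 to 5.81), which leaves its direction undetermined. Neo1 had 6 and 5 reads at the wavefront and 11 and 12 in trailing cells, or 10.1 and 29.2 scaled CPM at the wavefront and 20.8 and 25.2 scaled CPM in trailing cells. Its groups overlapped, and its log2 fold change was -0.60 ± 0.61 SE (edgeR adjusted p = 0.845); without wavefront replicate 1 the sign turned, to 0.35.

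Robo1 (chromosome 16, 72308306 to 73046095), the main Robo, had 16 and 9 reads at the wavefront and 15 and 22 in trailing cells. Scaled, these were 26.9 and 52.6 CPM at the wavefront and 28.4 and 46.1 CPM in trailing cells, with full overlap. The log2 fold change was -0.12 ± 0.46 SE (95% interval -1.04 to 0.80; edgeR adjusted p = 0.967), and without wavefront replicate 1 it was 0.51. The interval is wide on both sides of 0, so Robo1 may differ in either direction. Robo2 had 3 and 1 reads at the wavefront and 7 and 3 in trailing cells (scaled ratio 0.52, 0.12 to 1.82).

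Of the EphB receptors, Ephb4 (chromosome 5, 137350109 to 137378669), the receptor for ephrin-B2 best known from veins, was the most abundant. It had 29 and 5 reads at the wavefront and 11 and 15 in trailing cells, which is 48.7 and 29.2 scaled CPM at the wavefront and 20.8 and 31.4 scaled CPM in trailing cells. The groups overlapped, with wavefront replicate 1 highest, and the log2 fold change was 0.72 ± 0.46 SE (edgeR adjusted p = 0.665). The 10 endothelial markers summed to 64.1 and 113 CPM outside ribosomal RNA at the wavefront and 44.0 and 84.7 CPM in trailing cells. At 0 were Cdh5 and Erg at the wavefront, and Erg, Tek, Tie1, Esam, Flt1 and Emcn in trailing cells, and the part of endothelial cells in the Ephb4 reads was not tested. Ephb3 had 1 and 4 reads at the wavefront and 3 and 11 in trailing cells, and Ephb2 had 2 and 1 reads at the wavefront and 4 and 3 in trailing cells. Ephb1 had 1 and 1 reads at the wavefront and 0 and 0 in trailing cells. Ephb6, which lacks kinase activity, had 0 and 2 reads at the wavefront and 2 and 0 in trailing cells.

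Epha7 was the main EphA receptor, with 10 and 9 reads at the wavefront and 3 and 12 in trailing cells. Its scaled levels were 16.8 and 52.6 CPM at the wavefront and 5.68 and 25.2 CPM in trailing cells. The groups overlapped, with replicate 2 the higher library of each, and the log2 fold change was 0.82 ± 0.63 SE (edgeR adjusted p = 0.75). Epha4, which binds ephrins of both classes, had 3 and 2 reads at the wavefront and 1 and 5 in trailing cells. Epha3 had 0 and 1 reads at the wavefront and 2 and 2 in trailing cells, and Epha5 had 0 and 0 at the wavefront and 1 and 1 in trailing cells. Epha1, an epithelial Eph receptor, had 2 and 1 reads at the wavefront and 0 and 0 in trailing cells, at or under the floor in both groups. A 236-base exon overlap with Zyx on the other strand, a gene with 129 reads, adds doubt to the Epha1 reads, since the library kit does not keep the strand.

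Counted over the 29 genes with a read, 4 had both wavefront libraries above both trailing ones (Ntn1, Unc5c, Epha1 and Ephb1) and 8 had both below (Slit3, Efnb3, Efna2, Unc5a, Unc5b, Robo2, Ephb2 and Epha5). These are 13.8% and 27.6% of the 29, beside 12.5% and 19.9% of the 14589 genes with a read, of which 32.4% did not overlap in either direction. Among the 7 tested by counts the groups did not overlap for Unc5c, higher at the wavefront, and Slit3, lower there, beside 18.3% of the 5759 genes tested with the wavefront above and 20.9% with it below, or 39.1% together.

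The families were also summed, as a description with no test. Ligands summed to 260 and 210 scaled CPM at the wavefront and 265 and 356 in trailing cells, and receptors to 185 and 292 at the wavefront and 146 and 216 in trailing cells. The ligand sums of the groups did not overlap on this scale and lay lower at the wavefront, while the receptor sums overlapped. In deposited CPM the ligand sums overlapped too, at 285 and 138 at the wavefront and 271 and 376 in trailing cells. The netrin receptor sum was 72.2 and 81.8 scaled CPM at the wavefront and 53.0 and 60.8 in trailing cells. In deposited CPM it was 79.2 and 53.8 at the wavefront and 54.2 and 64.1 in trailing cells, so the groups overlapped there. Ephrins had 114 and 17 reads at the wavefront and 87 and 117 in trailing cells, and Eph receptors had 48 and 26 reads at the wavefront and 27 and 49 in trailing cells. In deposited CPM the log2 ratio of wavefront over trailing means was -0.63 for ephrins, 0.23 for Eph receptors, -0.75 for Slits, -0.41 for Robos and 0.17 for netrin receptors. Outside ribosomal RNA the same ratios were -0.53, 0.61, -0.41, -0.039 and 0.44, in the same order of families. In deposited CPM, with each library left out in turn, the ratio of Eph receptors ranged between -0.20 and 0.85. That of netrin receptors ranged between -0.14 and 0.42. The sign turned without trailing replicate 1 for Eph receptors and without wavefront replicate 1 for netrin receptors. On the same scale the ratio of ephrins ranged between -1.71 and -0.02 and that of all ligands between -1.22 and -0.18. Robos ranged between -0.59 and -0.21 and Slits between -0.83 and -0.66. For Robos and Slits the ratios outside ribosomal RNA, -0.039 and -0.41, lay above these ranges.

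**Figure D4:**
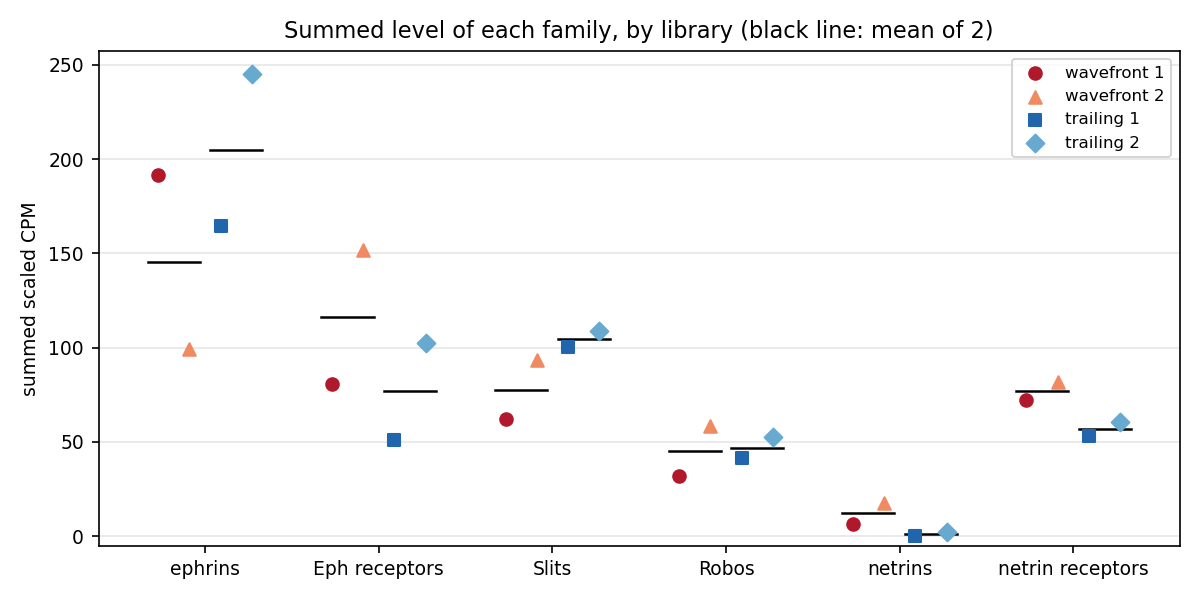
Summed scaled CPM of each of the 6 families on the vertical axis, with 1 point per library and a black line at the mean of the 2 libraries of a group, wavefront left of trailing. The ephrin sum is lowest in wavefront replicate 2, at 99.3, and highest in trailing replicate 2, at 245, and the netrin sum is 17.5 or less in every library.

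Genes that act with these receptors were taken from 3 lists of 16 genes each, for Eph and ephrin, for Slit and Robo and for netrin signalling. The count test covered 8, 9 and 3 of them, of which 1 fell and 0 rose, beside 1.34% and 0.399% of all genes tested, and limma called 0 of 15, 16 and 10. Their median log2 fold changes in edgeR were -0.11, 0.03 and -0.38, beside 0.01 for all genes. The gene that fell was Nell2, a secreted ligand of Robo3, with 67 and 24 reads at the wavefront and 161 and 116 in trailing cells. Its scaled level was 126 ± 19.6 CPM at the wavefront and 274 ± 43.7 CPM in trailing cells (SD over 2 libraries of each group). The log2 fold change was -1.16 ± 0.32 SE, with an adjusted p of 0.0427 in edgeR. The fold kept its direction in 11 of 11 alternatives, with a log2 fold change of -1.40 to -0.94. Its groups did not overlap, so leaving out 1 library could hardly turn the fold. With all 4 libraries the call held in edgeR with DESeq2 size factors (adjusted p = 0.0414). It was lost in every other alternative with all 4 libraries, with edgeR and DESeq2 adjusted p up to 0.981. Nell2 is known from neurons, whose markers were lower at the wavefront too, and their part in its fall was not tested. Robo3 itself had no read.

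Other partners did not pass with all 4 libraries. Rgmb, a membrane-anchored ligand of neogenin, had 7 and 3 reads at the wavefront and 21 and 26 in trailing cells (log2 fold change -1.81 ± 0.53 SE, edgeR adjusted p = 0.0659). Ptpro, a receptor phosphatase known in chick to dephosphorylate Eph receptors, had 43 and 10 reads at the wavefront and 14 and 14 in trailing cells (1.28 ± 0.40 SE, edgeR adjusted p = 0.0925). Without wavefront replicate 2, which leaves 1 wavefront library, their edgeR log2 fold changes were -1.92 and 1.42.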

How the data were processed

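RNA of 4 libraries was measured, 2 per position. Per the labels' protocols, sorted cells were lysed in Trizol and libraries made with Nextera XT. The submitters' processing notes name STAR 2.5.2b, DESeq2, featureCounts, FastQC 0.11.9 and bcl2fastq 2.17 as tools, with GRCm38 (mm10) as build. The handling of strand and of overlapping genes is not given in sources used here. The authors deposited CPM per library, per the file headers. Divided by the CPM worth of a single read, 100% of values came out whole within 0.01 reads, and these reads were used; 428 repeated rows were left out. The deposited log2 fold change and its error, the deposited p-value (unadjusted), the deposited Wald score and the deposited BaseMean signal (reads over size factors) are the authors'; of these the p-value of Ntn1 is quoted.

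The planned test was limma 3.58.1 (trend) on log2(CPM + 1) for mean CPM above 1. The count test for recovered reads was edgeR 4.0.16 (quasi-likelihood, TMM, filterByExpr with 10 reads), with standard errors from the fold change and F statistic. DESeq2 1.42.0 was an alternative, with R 4.3.3. Tests were two-sided, with p-values Benjamini-Hochberg adjusted over all genes tested, with a threshold of 0.05. Both tests were run on simulated reads with planted fold changes, and a pass mark was set for edgeR only. The simulated libraries shared a single expression profile, so the differences in ribosomal RNA share seen here were not covered. Scaled ratios pool the reads of a group over TMM-adjusted library sizes, with exact binomial intervals (95%); intervals and floors of 3 reads cover counting error only. Coordinates and exon lengths are those of GENCODE M21, on the same build, and all 38 genes matched, 1 of them, Ntn3, by symbol, since its deposited identifier belongs to another gene there. The genes and lists were chosen with earlier results of these data known. Every gene of the rule with a read could be named, of the partner lists those past the threshold and up to 6 with most reads per list. The partners named under other observations lie outside that rule and were picked after their values were seen. Exons of 10 of the 38 genes overlap another annotated gene. Replicate numbers are shared between groups but not stated to pair libraries. Some results are not reported here.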

Additional observations from a re-analysis of the deposited data

How the results depend on the processing

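Of the 38 guidance genes, 0 passed with all 4 libraries in limma, edgeR or DESeq2 under any alternative. With 1 library left out a group keeps 1 library and no spread, so calls of guidance and partner genes in those fits are not counted. Unc5c kept its direction in all 10 edgeR and DESeq2 alternatives that tested it (log2 fold change 1.09 to 1.66) and Slit3 in 11 of 11. Their groups did not overlap, so leaving out 1 library could hardly turn them. Epha7 and Ephb4, whose groups overlapped, kept theirs in 10 of 10 each. Ntn1 kept its direction in 9 of 9 in limma, which its lack of trailing reads fixed in advance. Thinning took Unc5c under the read filter. Efna5 turned without some libraries (-1.94 to 0.28 in limma, -1.31 to 0.24 in edgeR), as did Neo1 (-1.12 to 0.35) and Robo1 (-0.40 to 0.51). Robo1 was also above 0 in DESeq2, at 0.018, and with the replicate block, at 0.045. The cause was not tested. Outside ribosomal RNA the log2 ratio was -0.41 for Slits and -0.039 for Robos, against -0.75 and -0.41 in deposited CPM. Over all genes, limma called 46 with TMM-scaled CPM, 5 without its filter, 3 with a pseudocount of 5 and 52 with the replicate block. The count test called 100; it called 13 in DESeq2, 61 with the replicate block and 15 after thinning to the lowest total, where fewer genes were tested. With 1 library left out it called 40 (without trailing replicate 2) to 143 (without wavefront replicate 2). With all 4 libraries, 1 partner gene was called in edgeR, and 1 in edgeR with DESeq2 size factors. The count was 0 in DESeq2, with library size alone, without the filter, with the replicate block, without ribosomal RNA and after thinning. The replicate numbers were no pairing by the labels, and deviations of same-numbered libraries correlated at 0.059; with the block Unc5c had 1.27 (edgeR adjusted p = 0.328) and Nell2 lost its call (0.0621).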

Other observations

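The trailing replicates were also compared with each other. Of 14 guidance genes with 10 or more trailing reads, 4 had a counting interval of the scaled ratio of trailing replicate 2 over trailing replicate 1 wholly above 1, and 0 wholly below it. Over all 8127 genes with as many trailing reads, 5.02% lay wholly above 1 and 5.25% wholly below it. Efnb2 had 13 reads in trailing replicate 2 and 2 in trailing replicate 1 (ratio 7.19, 95% exact binomial interval 1.63 to 65.7). Epha7 had 12 and 3 reads (4.43, 1.19 to 24.4), Ephb3 had 11 and 3 (4.06, 1.07 to 22.7) and Efna5 had 82 and 64 (1.42, 1.01 to 1.998), in the same order of libraries. These intervals compare 2 libraries in counting error only, and the genes were singled out after their values were seen.

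Several partners on the lists had few reads, most of them at 1 position. Vav3, a guanine nucleotide exchange factor, had 5 and 1 reads at the wavefront and 0 and 0 in trailing cells, and Grip1, a PDZ protein that binds ephrin-Bs, had 1 and 3 reads at the wavefront and 0 and 0 in trailing cells. Srgap3, a GTPase-activating protein of Slit and Robo signalling, had 0 and 1 reads at the wavefront and 6 and 4 in trailing cells. These genes were picked after their values were seen, and neither fit called Vav3, Grip1 or Srgap3: limma gave an adjusted p of 0.68 for each and edgeR's read filter left them out. Draxin, a secreted ligand of Dcc, had 0 and 0 reads at the wavefront and 2 and 1 in trailing cells, and Ntng1, Ntn5 and Dscam had no read in any library.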
